A study of Rattus norvegicus with 192 samples.

Results

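Mitochondrial fatty acid oxidation was followed through 10 genes Acsl1, Cpt1a, Slc25a20, Acadl, Acadm, Hadha, Hadhb, Eci1, Decr1 and Pdk4, in primary hepatocytes of male rats. A gene was taken where the symbol of a probe, its name without the final number, was one of these. Of the 10 genes 9 had a probe, each with 1 of the 22253 probes of the table, and all 9 passed the filter that left 11055 probes for testing. Slc25a20, the carrier of acylcarnitines into mitochondria, is not analysed here. The assay was TempO-Seq, a targeted sequencing method in which a pair of detector oligonucleotides is ligated on a transcript and counted.

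There were 192 libraries. Cells were exposed for 24 h to 29 chemicals at 6 doses each (174 libraries, 1 per dose), to 9 reference chemicals at 1 dose each, or to the solvent DMSO at 0.1%, which all treated cells received too (9 libraries). Doses ended at 100 µM for 16 of the chemicals and at 33.3 µM for the other 13. The cells are isolated hepatocytes on collagen, and nothing in the labels says whether wells came from separate animals or cultures, so p-values rest on a library-to-library spread that may be technical alone. DMSO replicates 2 to 9 served as controls, since replicate 1 stood apart from them, as it does for the genes here: its Hadhb was 26.9 CPM (counts scaled to a common library total), its Eci1 28.7 CPM and its Pdk4 0.909 CPM, each below the 8 others.

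Total counts ran from 582071 to 11249014 with a median of 5745085. Of the treated libraries, 11 scored above 0.5 on the direction in which DMSO replicate 5 departs from replicates 4 and 6, and the PFOA library at 100 µM had the score 1.83. Hepatocyte markers (8 of 8 with a probe) summed to 14318 to 49506 CPM in treated libraries and 28132 to 49473 CPM in DMSO. Markers of other liver cells summed to 31.7 to 150 CPM in treated libraries and 44.5 to 80.6 CPM in DMSO for macrophages (7 of 7 with a probe), and to 1.72 to 29.1 CPM in treated libraries and 9.39 to 16.7 CPM in DMSO for endothelium (5 of 5). The sums were 1.49 to 37.8 CPM in treated libraries and 2.13 to 5.75 CPM in DMSO for stellate and mesenchymal cells (5 of 6), and 8.86 to 127 CPM in treated libraries and 15.3 to 29.2 CPM in DMSO for bile ducts (4 of 4). Col1a1 and Krt7 were at 0 CPM in DMSO and Krt19, Ptprc and Adgre1 at 0.0321, 0.203 and 0.212 CPM on average, while Clec4f, Marco, Cd68 and Epcam were measured at 20.5, 15.7, 12.1 and 20.9 CPM.

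Fatty acids are burned in mitochondria by β-oxidation. Acsl1 activates a long-chain fatty acid to its acyl-CoA, and Cpt1a, on the outer membrane, couples it to carnitine for entry, the step that limits the rate in liver. Inside, Acadl and Acadm oxidise long-chain and medium-chain acyl-CoA, and Hadha and Hadhb are the subunits of the trifunctional protein that carries out the later steps on long chains. Eci1 and Decr1 rearrange and reduce the double bonds of unsaturated fatty acids. Pdk4 phosphorylates and inhibits pyruvate dehydrogenase and so favours fatty acid over glucose as fuel. In rodent liver these genes are known targets of PPARα, a nuclear receptor that binds fatty acids and drugs of the fibrate type.

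In DMSO the 9 transcripts differed in how closely the 8 libraries agreed. Acadl was measured at 1023 to 1301 CPM (median 1202) and Decr1 at 68.5 to 89.7 CPM (median 79.8), both with a coefficient of variation near 8.03%. Eci1 spread most, with 218 to 637 CPM (median 326), its highest value being that of replicate 5, which was also the highest for Acadm, Hadha, Hadhb and Pdk4. The ranges were 246 to 486 CPM for Acadm, 247 to 357 CPM for Hadha and 189 to 308 CPM for Hadhb. Acsl1 ranged over 46.9 to 94.7 CPM, its lowest value again being replicate 5. Cpt1a ranged over 12.9 to 26.5 CPM and Pdk4 over 4.88 to 9.04 CPM, from 68 to 172 and from 19 to 59 counts. Probes differ in efficiency, so levels are set side by side within a gene only.

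Across the 29 chemicals, dose trends were tested with edgeR's quasi-likelihood test, adjusted by Benjamini-Hochberg over the 11055 probes, and each value below is the log2 change that the fit gives for 33.3 µM, ± its SE. Since plate is a term of the fit, a trend rests on libraries of 1 plate, except for simazine. Its level without chemical comes from DMSO replicates 2 and 3 on plate 1, 4 to 6 on plate 2 or 7 to 9 on plate 3. The other DMSO libraries add to the estimate of spread. The DMSO ranges printed beside the values hold all 8 libraries of the 3 plates. Of 261 pairs of a gene and a chemical, 18 were called higher and 17 lower at an adjusted p under 0.05. Over all probes and chemicals the shares called were 0.95% higher and 0.713% lower. The calls fell to 8 chemicals, with only higher calls for PFOA, S-Bioallethrin and dithiopyr, only lower calls for triadimefon, oxadiazon, flusilazole and triticonazole, and both for cyproconazole, while 21 chemicals had none. DESeq2 called a gene lower for 3 of those 21 (7 calls, 5 of them with imazalil). Over all probes DESeq2 called more too, 868 against 414 with PFOA and 1717 against 988 with cyproconazole. Of the single values in treated libraries, 12% lay above and 22.3% below all 8 DMSO libraries, against 11.7% above and 11.8% below over all probes. Decr1 gave the largest part of the low values, with 87 of 183 treated libraries below a narrow DMSO range, and Acsl1 followed with 59. Pdk4 gave the largest part of the high values, with 56 of 183 treated libraries above its DMSO range.

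**Figure D1:**
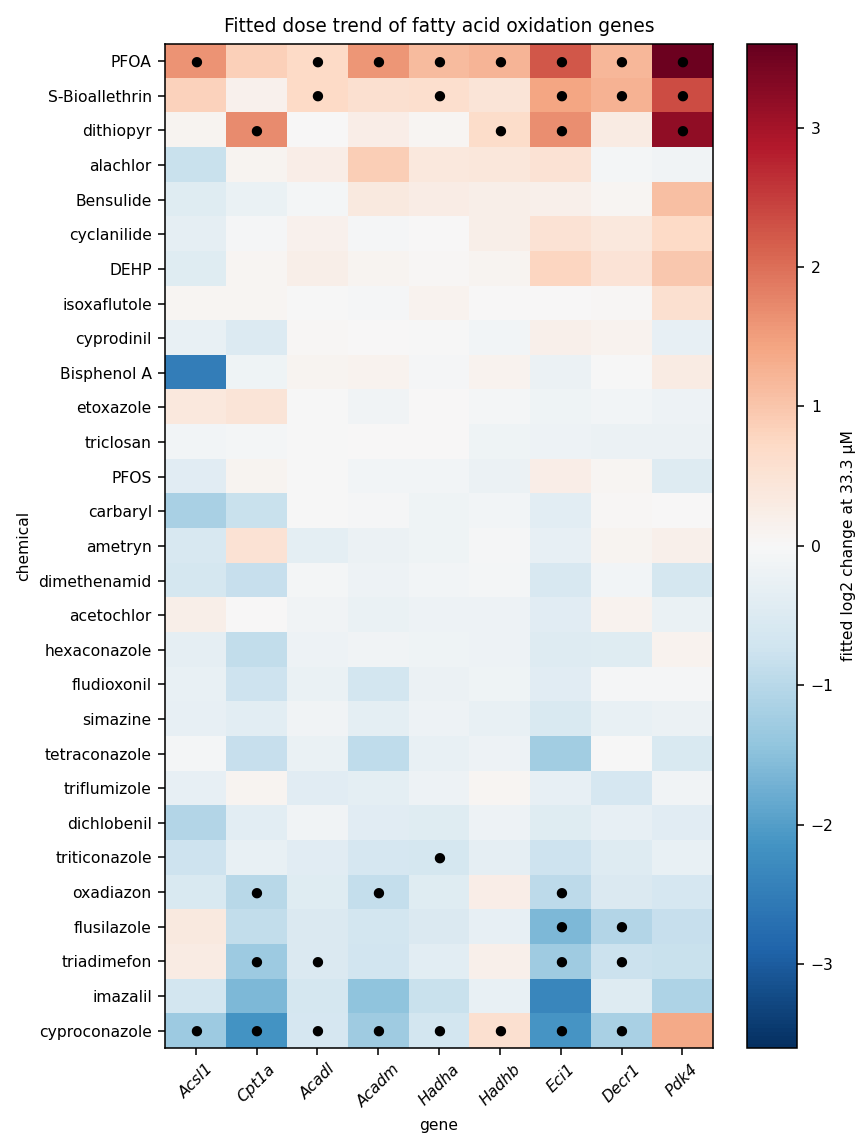
Fitted log2 change at 33.3 µM (colour) for 9 genes (columns) and 29 chemicals (lines, ordered by the median over the genes); a dot marks an adjusted p under 0.05. PFOA, S-Bioallethrin and dithiopyr stand at the top with the higher calls, and cyproconazole at the bottom with 7 genes lower and Hadhb higher.

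PFOA (perfluorooctanoic acid, a surfactant known to activate PPARα in rodent liver) had the most higher calls, 8 of 9 genes, against 3.74% of all probes called in either direction. The median change of the 9 genes was 1.22, against -0.04 for all probes. Pdk4 was measured at 3.79, 4.80, 5.72, 16.8, 97.4 and 72.5 CPM at 0.4, 1.2, 3.7, 11.1, 33.3 and 100 µM, against 4.88 to 9.04 CPM in DMSO. The first 3 doses thus lay within or below the DMSO range and the last 3 above it. The fitted change was 3.53 ± 0.41 (adjusted p = 0.000355). Eci1 was measured at 363, 342, 512, 759, 1824 and 2682 CPM over the same doses, against 218 to 637 CPM in DMSO. Its 3 highest doses exceeded all DMSO libraries, and it rose by 2.24 ± 0.27 (adjusted p = 0.000496).

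The other called genes passed the DMSO range with PFOA at their own doses. Acadm was measured at 306, 274, 329, 381, 769 and 1435 CPM, against 246 to 486 CPM in DMSO, and was above DMSO at 33.3 and 100 µM only. Acsl1 was at 42.0, 65.1, 86.2, 164, 321 and 77.2 CPM, against 46.9 to 94.7 CPM in DMSO. It was above the controls at 11.1 and 33.3 µM and back among them at 100 µM. Acadl and Decr1 were likewise highest at 33.3 µM, with 2065 CPM for Acadl (1638 CPM at 100 µM) and 215 CPM for Decr1 (107 CPM at 100 µM). Both were above DMSO from 3.7 µM on, and Acadl also at 0.4 µM but not at 1.2 µM. Hadha reached 648 CPM at 33.3 µM and 619 CPM at 100 µM, and Hadhb 472 CPM and 682 CPM at those doses. The fitted changes were 1.58 ± 0.28 for Acadm, 1.62 ± 0.38 for Acsl1 and 1.20 ± 0.23 for Decr1, and between 0.73 and 1.22 for Acadl, Hadha and Hadhb, with the largest adjusted p of the 8 that of Acsl1 (0.0341). Cpt1a did not pass the test (0.87 ± 0.30, adjusted p = 0.117), with 13.3, 12.9, 14.5, 21.2, 32.9 and 41.2 CPM, against 12.9 to 26.5 CPM in DMSO.

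Other genes of the pathway, from lists chosen with results of these data known, moved with these in the PFOA libraries. Of other mitochondrial β-oxidation genes 8 of 18 tested rose and 0 fell, with a median change of 0.75, among them the thiolase Acaa2 (2.11 ± 0.18), the thioesterase Acot2 (2.24 ± 0.23), Hadh (1.99 ± 0.26) and Acadvl (1.01 ± 0.14). Of peroxisomal β-oxidation genes 6 of 14 rose, led by Ehhadh (5.35 ± 0.50). Of other PPARα targets 4 of 9 rose, including the fatty acid hydroxylase Cyp4a1 (3.63 ± 0.29) and the lipid droplet protein Plin2 (1.05 ± 0.14). With PFOA edgeR called 0 of 12 genes of oxidative phosphorylation and citrate synthase (median -0.12) and 0 of 8 hepatocyte markers, of which 4 and 3 had an unadjusted p under 0.05. These counts of 0 lie near the share of all probes, 3.74%. The PFOA library at 100 µM held 2304919 counts and 52.3% of all probes lay below the DMSO range in it. Leaving that highest dose out left 6 calls, with Acadm at 0.85 (adjusted p = 0.224) and Hadhb at 0.72 (adjusted p = 0.176) lost. All probes called then fell to 182 from 414. Acsl1 was no longer called when DMSO replicate 2, 3, 4, 6, 8 or 9 was left out, or dose 0.4, 1.2 or 33.3 µM (adjusted p 0.0506 to 0.107), with a change of 0.93 without 33.3 µM, and with the dose score by rank (adjusted p = 0.0594).

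PFOS (perfluorooctanesulfonate) is a sulfonate, while PFOA is a carboxylate, and was given at the same 6 doses on the same plate. With PFOS, 0 of 9 genes were called, against 0.109% of all probes. None had an unadjusted p under 0.05, and with DESeq2 too the count was 0. Pdk4 with PFOS stayed at 4.30 to 8.71 CPM, against 4.88 to 9.04 CPM in DMSO. Eci1 was at 297, 316, 322, 261, 387 and 693 CPM, so that only 100 µM exceeded the DMSO range, and at that dose 4 genes lay above DMSO, where 16.9% of all probes did. The difference between the slopes, PFOA minus PFOS, was called higher for 8 of 9 genes, against 4.03% of all probes called in either direction. It was 3.41 ± 0.47 for Pdk4 (adjusted p = 0.000183), 2.13 ± 0.40 for Acsl1, 2.01 ± 0.33 for Eci1 and 1.57 ± 0.29 for Acadm. For Hadhb it was 1.33 ± 0.22, for Hadha 1.23 ± 0.18, for Decr1 1.19 ± 0.22 and for Acadl 0.79 ± 0.14, all with an adjusted p of 0.00383 or less. Cpt1a had a difference of 0.65 with a 95% interval of 0.01 to 1.29 (adjusted p = 0.249). Without 33.3 µM, Acsl1 (1.50) and Decr1 (0.87) lost the call, each with an adjusted p of 0.0548.

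**Figure D2:**
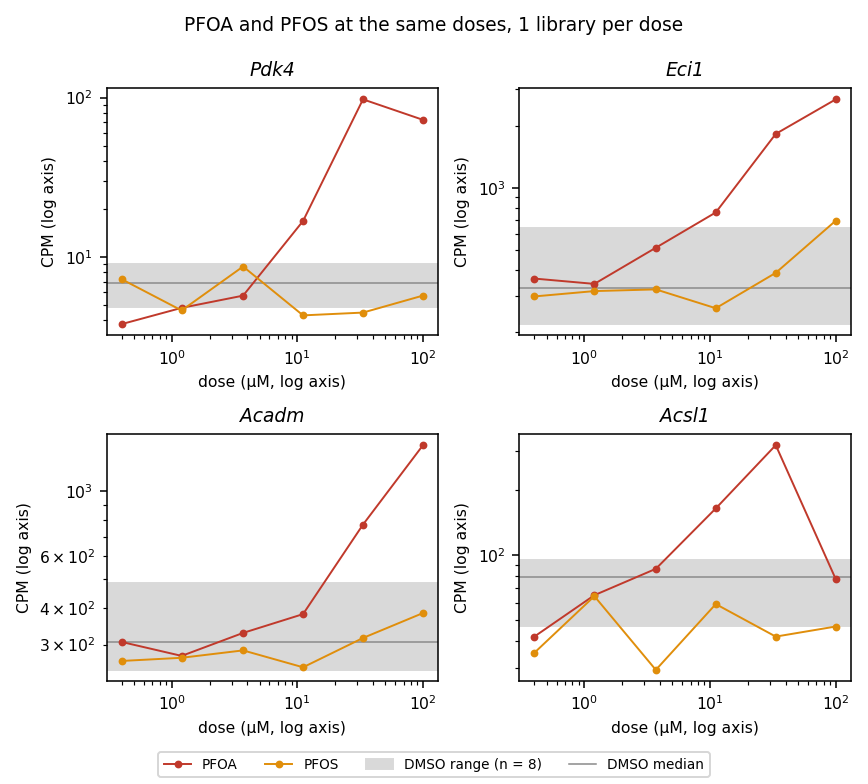
CPM of Pdk4, Eci1, Acadm and Acsl1 (log axis) by dose of PFOA and PFOS (log axis), 1 library per point, with the range and median of DMSO replicates 2 to 9 in grey. With PFOA Pdk4 reaches 97.4 CPM at 33.3 µM, while with PFOS it stays at 8.71 CPM or less.

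S-Bioallethrin, a pyrethroid insecticide, raised 5 of 9 genes, against 2.93% of all probes called in either direction. Pdk4 was measured at 3.38, 7.74, 10.9, 14.9, 38.2 and 38.8 CPM, against 4.88 to 9.04 CPM in DMSO, which puts every dose from 3.7 µM above the controls (2.36 ± 0.27, adjusted p = 0.000184). Decr1 was at 68.8, 73.2, 93.8, 159, 196 and 175 CPM, against 68.5 to 89.7 CPM in DMSO, and also left the DMSO range at 3.7 µM (1.25 ± 0.15, adjusted p = 0.000217). Eci1 reached 1335 CPM at 33.3 µM and rose by 1.41 ± 0.28. Acadl reached 2265 CPM at the same dose, the highest Acadl value of all libraries, and rose by 0.73 ± 0.12. Hadha rose by 0.59 ± 0.14 (adjusted p = 0.0307). Acsl1 (0.83 ± 0.22, adjusted p = 0.0584), Hadhb (0.46 ± 0.14, adjusted p = 0.0897) and Acadm (0.56 ± 0.22, adjusted p = 0.186) did not pass, and Cpt1a was at 8.09 to 22.0 CPM, with no dose above the DMSO range.

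Of other mitochondrial β-oxidation genes 8 of 18 rose with S-Bioallethrin, including the carnitine acetyltransferase Crat (1.92 ± 0.18) and Acaa2 (1.58 ± 0.16), and of peroxisomal genes 7 of 14, including Ehhadh (4.48 ± 0.38). Of other PPARα targets 4 of 9 rose, and of hepatocyte markers edgeR called 0 of 8, with 1 at an unadjusted p under 0.05. Without DMSO replicate 5 the count of the 9 genes was 8, while all probes called rose from 324 to 1036. Hadha was no longer called when DMSO replicate 4 or 6 was left out, or without 1.2, 11.1, 33.3 or 100 µM (0.53 to 0.64, adjusted p 0.0507 to 0.15). Without 33.3 µM the count was 3, since Eci1 was lost too (1.18, adjusted p = 0.0756), and 123 of all probes were called. For the difference S-Bioallethrin minus PFOA, 0 of 9 genes and 0% of all probes were called by edgeR, though 7 genes had an unadjusted p under 0.05. The count with DESeq2 was 0 of 9 as well. The 95% intervals ran from -1.53 to -0.28 for Acadm and from -1.72 to -0.16 for Acsl1, and from -0.42 to 0.54 for Decr1 and -0.38 to 0.23 for Acadl.

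**Figure D3:**
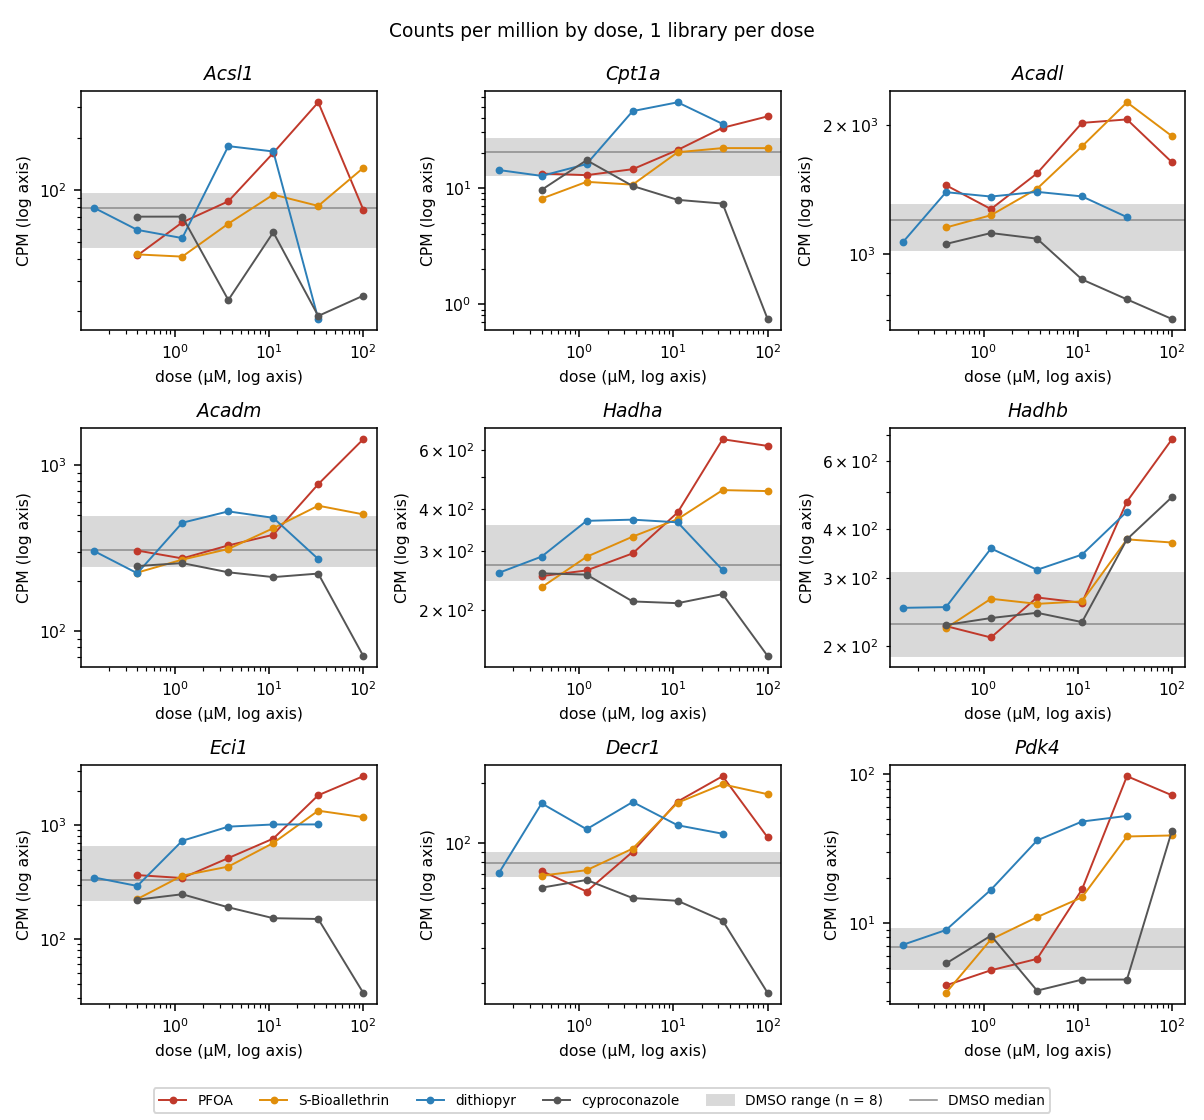
CPM (log axis) of the 9 genes by dose (log axis) of PFOA, S-Bioallethrin, dithiopyr and cyproconazole, 1 library per point, with the range and median of DMSO replicates 2 to 9 in grey. With cyproconazole the lines of 7 genes run down while Hadhb reaches 484 CPM at 100 µM, and with dithiopyr Cpt1a peaks at 54.5 CPM at 11.1 µM.

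Dithiopyr, a pyridine herbicide, raised 4 of 9 genes, against 13% of all probes called in either direction and 6.26% called higher. Of the 29 chemicals it alone had a higher call for Cpt1a. Cpt1a was measured at 14.3, 12.7, 16.0, 45.8, 54.5 and 35.5 CPM at 0.14, 0.4, 1.2, 3.7, 11.1 and 33.3 µM, against 12.9 to 26.5 CPM in DMSO. The 3 highest doses were above all controls, with the peak at 11.1 µM (1.71 ± 0.39, adjusted p = 0.00982). Pdk4 was at 7.13, 8.96, 16.7, 35.9, 48.2 and 52.6 CPM, against 4.88 to 9.04 CPM in DMSO, above the controls from 1.2 µM on (3.19 ± 0.38, adjusted p = 0.000148). On the same plate Pdk4 reached 16.2 CPM with Bensulide (33.3 µM) and 15.3 CPM with Bisphenol A (1.2 µM). Neither chemical had a call for Pdk4. Eci1 was at 346, 291, 726, 967, 1010 and 1011 CPM, against 218 to 637 CPM in DMSO, and rose by 1.68 ± 0.40 (adjusted p = 0.0132). Hadhb reached 444 CPM at 33.3 µM and rose by 0.67 ± 0.21 (adjusted p = 0.0481).

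Several genes without a call had their high values at middle doses of dithiopyr, which a trend over dose does not take up. At 3.7 µM 9 of 9 genes lay above all DMSO libraries, where 12.3% of all probes did, and at 11.1 µM 8 of 9, where 18.3% did. Acsl1 was at 179 and 167 CPM at these doses but at 18.1 CPM at 33.3 µM, under the DMSO minimum of 46.9 CPM. Over all chemicals Acsl1 was under that minimum in 59 of 183 treated libraries. Acadm was at 527 CPM at 3.7 µM and 272 CPM at 33.3 µM, within the DMSO range, and Hadha at 373 and 264 CPM at these doses. In the 33.3 µM library the hepatocyte markers summed to 14318 CPM, against 28132 to 49473 CPM in DMSO, and over doses 5 of 8 fell, including Tf (-2.17 ± 0.36) and Alb (-0.96 ± 0.27), and their part in the values of the 9 genes was not tested. Ppara itself fell with dithiopyr (-2.08 ± 0.58, adjusted p = 0.0286), as did its partner Rxra (-0.89 ± 0.18) and the pyruvate dehydrogenase kinases Pdk1 (-2.02 ± 0.54) and Pdk2 (-1.31 ± 0.31). Of other mitochondrial β-oxidation genes 2 of 18 rose and 1 fell. Of peroxisomal genes 1 of 14 rose and 2 fell (Pecr and Acox2). Over all probes 13% were called with dithiopyr in either direction and 6.26% called higher. Without the highest dose 63 of all probes were called, against 1437 with it. Of the 9 genes 2 were then called, with Eci1 at 2.38 (adjusted p = 0.0833) and Hadhb at 0.59 lost. Hadhb was not called either when DMSO replicate 2, 3, 4, 7, 8 or 9 was left out, or without 0.14, 0.4 or 3.7 µM (0.59 to 0.68, adjusted p 0.0565 to 0.11), without the filter (adjusted p = 0.0648) or with the dose score by rank (adjusted p = 0.0630).

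Cyproconazole, a triazole fungicide, had the most lower calls, 7 of 9 genes, together with 1 higher, against 8.94% of all probes called in either direction and 3.1% called lower. The median change of the 9 genes was -1.16, against -0.07 for all probes. Eci1 was measured at 221, 246, 189, 152, 150 and 33.6 CPM at 0.4, 1.2, 3.7, 11.1, 33.3 and 100 µM, against 218 to 637 CPM in DMSO, below all controls from 3.7 µM on (-2.13 ± 0.35, adjusted p = 0.00448). Decr1 was at 59.9, 65.4, 53.2, 51.5, 41.0 and 17.9 CPM, against 68.5 to 89.7 CPM in DMSO, below the controls at every dose (-1.16 ± 0.19, adjusted p = 0.00448). Low Decr1 was common, however. At the lowest dose it was below all controls for 15 of the 29 chemicals, and at the next dose for 11. Cpt1a was at 9.63, 17.3, 10.4, 7.89, 7.33 and 0.746 CPM, against 12.9 to 26.5 CPM in DMSO, the last value being 1 count. It fell by 2.14 ± 0.38 (adjusted p = 0.00611), and this call held in 22 of 22 alternatives.

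Acadm fell by 1.28 ± 0.27, Acsl1 by 1.31 ± 0.34, Hadha by 0.67 ± 0.16 and Acadl by 0.61 ± 0.13 with cyproconazole, with adjusted p-values of 0.0117 to 0.027. Over all chemicals Acsl1 lay below the DMSO range in 59 of 183 treated libraries. Acadm was at 212 to 257 CPM up to 33.3 µM and at 70.9 CPM at 100 µM, against 246 to 486 CPM in DMSO. Pdk4 did not pass the adjusted threshold, with an unadjusted p of 0.0189. It was at 3.50 to 8.21 CPM up to 33.3 µM and at 41.8 CPM at 100 µM, above the DMSO maximum of 9.04 CPM (1.35 ± 0.51, adjusted p = 0.114). The 100 µM library held 1340300 counts, the fewest of the dose libraries, and 28.9% and 39.8% of all probes lay above and below the DMSO range in it. Its hepatocyte markers summed to 16922 CPM, against 28132 to 49473 CPM in DMSO, and 2 of 8 fell over doses (Tf and Asgr1), and their part was not tested. Without that dose 79 of all probes were called, against 988 with it. Eci1 was then at -1.70 (adjusted p = 0.0594) and Acadm at -0.86 (adjusted p = 0.22). Of the 9 genes 2 stayed called, since Acadl, Acadm, Acsl1, Eci1, Hadha and Hadhb lost the call. Acsl1 also lost it without DMSO replicate 4 or 6 or without 33.3 µM (-1.28 to -1.06, adjusted p 0.0528 to 0.0596) and with the dose score by rank (adjusted p = 0.0573). Of other PPARα targets 6 of 9 fell, including Cd36 (-3.56 ± 0.33), which takes up fatty acids. Of other mitochondrial β-oxidation genes 6 of 18 fell, such as Hadh (-1.43 ± 0.30) and Acaa2 (-1.35 ± 0.29), and of peroxisomal genes 3 of 14, such as Ech1 (-1.53 ± 0.15).

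Triticonazole, another triazole fungicide, was given at the same doses on the same plate and had 1 lower call, Hadha (-0.64 ± 0.15, adjusted p = 0.0338), against 3.18% of all probes called in either direction. Hadha was at 271, 289, 239, 243, 241 and 164 CPM, against 247 to 357 CPM in DMSO. The call was lost without DMSO replicate 4, 6 or 8 or without 3.7, 11.1 or 100 µM (-0.71 to -0.46, adjusted p 0.0544 to 0.377), and without the libraries with a score above 0.5 (-0.54, adjusted p = 0.479). Cyproconazole minus triticonazole was called for 4 genes, against 9.65% of all probes in either direction. It was -1.98 ± 0.35 for Cpt1a (adjusted p = 0.00589), -1.54 ± 0.37 for Eci1 (adjusted p = 0.0187), -0.69 ± 0.20 for Decr1 (adjusted p = 0.0351) and 0.75 ± 0.18 for Hadhb (adjusted p = 0.0182). For Hadha the difference was -0.09 with a 95% interval of -0.42 to 0.24. Of the triticonazole libraries 4 had a library score above 0.5, as did DMSO replicate 5. Without these 5 libraries together 0 of the 9 genes were called by edgeR in the difference, with Cpt1a at -2.01 (adjusted p = 0.388). With the library score as a covariate Eci1 (-0.96, adjusted p = 0.0749) and Decr1 (-0.67, adjusted p = 0.0833) were not called, and without the filter Decr1 was not (adjusted p = 0.0551). Decr1 lost its call without 3.7 or 11.1 µM (adjusted p = 0.0703 and 0.0817), Eci1 without 11.1 µM (adjusted p = 0.0631) and Hadhb without 100 µM (0.48, adjusted p = 0.202).

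Triadimefon, a triazole fungicide measured on another plate, lowered 4 of 9 genes, against 0.959% of all probes called in either direction. Cpt1a was at 18.8, 16.0, 17.6, 12.2, 7.29 and 5.02 CPM from 0.4 to 100 µM, against 12.9 to 26.5 CPM in DMSO, and was below the controls from 11.1 µM on (-1.31 ± 0.21, adjusted p = 0.00511). Eci1 was at 343, 285, 254, 176, 139 and 78.0 CPM, against 218 to 637 CPM in DMSO, also below from 11.1 µM on (-1.29 ± 0.26, adjusted p = 0.0216). Decr1 fell by 0.78 ± 0.14 and Acadl by 0.52 ± 0.12 (adjusted p = 0.0469). DESeq2 called 6 lower. These libraries held 5084394 to 8632104 counts. Without 100 µM, 0 of the 4 calls held, with changes of -1.03 for Cpt1a (adjusted p = 0.176) and -0.95 for Eci1 (adjusted p = 0.455). The call of Acadl was also lost when DMSO replicate 4, 6, 7 or 9 was left out, or any of the 5 lower doses (adjusted p 0.0576 to 0.106), and Eci1 without 0.4 µM (adjusted p = 0.0517). With the dose score by rank, Acadl, Decr1 and Eci1 were not called (adjusted p = 0.148, 0.0616 and 0.111), and Acadl was not called without the filter or with DESeq2's scaling (adjusted p = 0.0534 in both).

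Oxadiazon, an oxadiazole herbicide, lowered 3 genes, against 1.33% of all probes, and flusilazole, a triazole fungicide, lowered 2, against 0.588%. With oxadiazon Cpt1a was at 19.8, 18.4, 17.1, 19.1, 13.5 and 8.18 CPM, against 12.9 to 26.5 CPM in DMSO, and only 100 µM lay below the controls (-1.01 ± 0.21, adjusted p = 0.0266). Acadm (-0.85 ± 0.19) and Eci1 (-0.95 ± 0.23, adjusted p = 0.0497) were the others, and all 3 lost their calls without 100 µM (-0.89 to -0.71, adjusted p 0.776 to 0.8). Cpt1a lost it without DMSO replicate 4, Acadm without replicate 2, 3, 4 or 8 or without 0.4 or 3.7 µM, and Eci1 without replicate 2, 3, 4, 6, 7, 8 or 9 or any of the 5 lower doses (adjusted p 0.0502 to 0.0783 over these). Without the plate term 0 of the 3 were called, with -0.74 for Cpt1a (adjusted p = 0.0857), -0.65 for Acadm (adjusted p = 0.0829) and -0.70 for Eci1 (adjusted p = 0.167), and with the dose score by rank Eci1 was not (adjusted p = 0.0543). With flusilazole Eci1 was at 368, 321, 341, 271, 192 and 112 CPM from 0.14 to 33.3 µM, against 218 to 637 CPM in DMSO (-1.62 ± 0.30, adjusted p = 0.019). Decr1 was at 35.7 CPM at 33.3 µM, against 68.5 to 89.7 CPM in DMSO (-1.07 ± 0.17, adjusted p = 0.00663). Without 33.3 µM neither was called (adjusted p = 0.991 for Eci1 and 0.724 for Decr1), and Eci1 was not called without DMSO replicate 2 (-1.49) or 11.1 µM (-1.71), or with the dose score by rank (-1.43, adjusted p = 0.0803).

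Imazalil, an imidazole fungicide, had 10.5% of all probes called and 0 of the 9 genes in edgeR, with 7 of 9 at an unadjusted p under 0.05, while DESeq2 called 5 lower (Cpt1a, Hadha, Acadm, Acadl and Eci1). Without 11.1 µM edgeR called 5 as well, without DMSO replicate 5 it called 2, and without 0.4 or 3.7 µM 1. Eci1 was at 375, 248, 281, 247, 248 and 14.2 CPM from 0.14 to 33.3 µM, against 218 to 637 CPM in DMSO. Acadm was at 270 to 300 CPM at the 5 lower doses and at 39.6 CPM at 33.3 µM, against 246 to 486 CPM in DMSO. In the 33.3 µM library 9 of 9 genes lay below all DMSO libraries, where 38.4% of all probes did, and hepatocyte markers summed to 14751 CPM, against 28132 to 49473 CPM in DMSO. The fitted changes were -2.35 ± 0.77 for Eci1 (adjusted p = 0.0626) and -1.45 ± 0.56 for Acadm (adjusted p = 0.104).

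DEHP (di-2-ethylhexyl phthalate, a plasticiser whose breakdown product is known to activate PPARα in rodents) had 0 of 9 genes called by edgeR or DESeq2, with 3 at an unadjusted p under 0.05 and 0.172% of all probes called. Its 33.3 µM library lay above all DMSO libraries in 8 of 9 genes, where 14.5% of all probes did. Eci1 was at 1173 CPM in it, against 218 to 637 CPM in DMSO, and Pdk4 at 17.2 CPM, against 4.88 to 9.04 CPM in DMSO. Cpt1a was at 38.4 CPM, against 12.9 to 26.5 CPM in DMSO, and Hadhb, at 290 CPM, stayed within its DMSO range of 189 to 308 CPM. At 100 µM 3 of 9 genes lay above DMSO, where 16.3% of all probes did, with Eci1 at 670 CPM and Pdk4 at 14.5 CPM. Acsl1 was at 18.0 CPM there, below the DMSO minimum of 46.9 CPM, as in 59 of 183 treated libraries. The library score was 0.336 at 33.3 µM and 0.177 at 100 µM. The 33.3 µM library was picked for description after its values were seen. Dimethenamid had 0 of 9 genes and 0 of all probes called. Its 11.1 µM library had 8 of 9 genes below all DMSO libraries, where 25.1% of all probes were.

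Hadha and Hadhb went in opposite directions with cyproconazole. Hadhb was at 227, 236, 244, 231, 377 and 484 CPM, against 189 to 308 CPM in DMSO, above the controls at the 2 highest doses (0.58 ± 0.17, adjusted p = 0.0459). Hadha was at 258, 256, 213, 210, 224 and 146 CPM, against 247 to 357 CPM in DMSO, below the controls from 3.7 µM on. The higher call of Hadhb was lost in 15 of 22 alternatives, among them without DMSO replicate 2, 3, 4, 6, 7, 8 or 9 (0.56 to 0.60, adjusted p 0.0616 to 0.0873), without 0.4, 1.2, 3.7 or 33.3 µM (0.56 to 0.59, adjusted p 0.0576 to 0.0784) and without 100 µM (0.32, adjusted p = 0.664). At 100 µM of oxadiazon Hadhb was at 416 CPM and Hadha at 213 CPM, the first above and the second below all DMSO libraries. At 100 µM of triadimefon Hadhb was at 305 CPM, within the DMSO range, and Hadha at 194 CPM, below it. Over 191 libraries (all but DMSO replicate 1) the correlation of the log2 CPM of Hadha and Hadhb was 0.50.

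Both genes start close together on chromosome 6. The sequence around the start of Hadhb is shown because part of it is common to both. RefSeq's promoter table of build GRCr8 holds 250 bases before and 50 after each start. In it Hadha begins on the plus strand at 31907801 and Hadhb on the minus strand at 31907500, with 300 bases between the starts. The Hadhb gene itself reaches to 31907557, so that start lies inside it. A window was found for 8 of the 10 genes. The Hadhb window, chr6:31907451-31907750 on the minus strand, has in capitals the 200 bases that the Hadha window holds too, on the other strand.
Hadhb: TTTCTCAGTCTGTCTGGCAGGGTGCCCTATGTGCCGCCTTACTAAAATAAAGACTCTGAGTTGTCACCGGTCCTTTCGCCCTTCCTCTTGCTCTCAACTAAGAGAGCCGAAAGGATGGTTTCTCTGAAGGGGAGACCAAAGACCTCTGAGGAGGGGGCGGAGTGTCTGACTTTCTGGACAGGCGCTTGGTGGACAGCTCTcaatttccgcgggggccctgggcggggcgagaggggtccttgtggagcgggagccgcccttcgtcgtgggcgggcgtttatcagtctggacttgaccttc

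**Figure D4:**
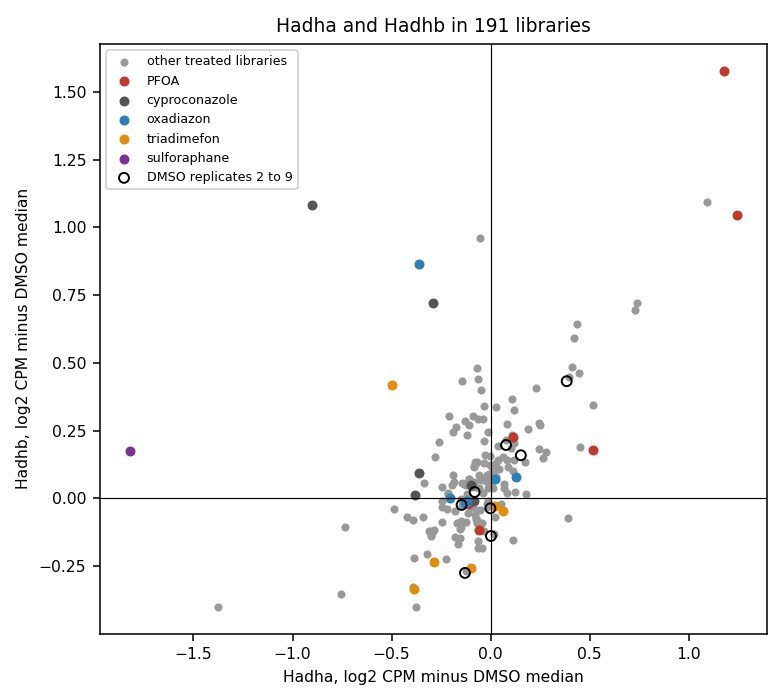
Log2 CPM of Hadha (x axis) and Hadhb (y axis), each minus its DMSO median, in 191 libraries (1 point each). Libraries of PFOA lie at the upper right, while the highest doses of cyproconazole, oxadiazon and triadimefon lie at the upper left.

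The letters AGGTCA, the half-site that nuclear receptors such as PPARα bind as a pair, were searched on both strands (TGACCT on the other). They occur in 16.2% of the 33469 promoter windows of the table. Among windows of genes measured here they are found in Eci1, 94 bases before the start, and in Hadhb, 42 bases after it, and not in Cpt1a, Hadha, Acadm, Acsl1 or Pdk4. The windows of Cpt1a and Acsl1 lie inside the gene, so sequence at its outer start was not searched. That of Cpt1a is chr1:209995910-209996209, in a gene of 209993881 to 210056329. That of Acsl1 is chr16:52532343-52532642 on the minus strand, in a gene of 52487870 to 52554110. The direct repeat AGGTCANAGGTCA was found in 0.0538% of all windows and in 0 of the windows of genes measured here. The windows of Eci1 and Pdk4, the genes with the largest changes with PFOA, are shown with the half-site in capitals where there is one, Eci1 at chr10:13961000-13961299 on the plus strand and Pdk4 at chr4:34568280-34568579 on the minus strand.
Eci1: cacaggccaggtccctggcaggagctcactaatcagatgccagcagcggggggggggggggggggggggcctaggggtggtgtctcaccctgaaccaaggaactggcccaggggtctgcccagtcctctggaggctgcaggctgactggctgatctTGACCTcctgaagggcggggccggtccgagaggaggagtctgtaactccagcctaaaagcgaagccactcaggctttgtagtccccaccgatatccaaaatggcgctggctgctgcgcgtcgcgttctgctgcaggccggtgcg
Pdk4: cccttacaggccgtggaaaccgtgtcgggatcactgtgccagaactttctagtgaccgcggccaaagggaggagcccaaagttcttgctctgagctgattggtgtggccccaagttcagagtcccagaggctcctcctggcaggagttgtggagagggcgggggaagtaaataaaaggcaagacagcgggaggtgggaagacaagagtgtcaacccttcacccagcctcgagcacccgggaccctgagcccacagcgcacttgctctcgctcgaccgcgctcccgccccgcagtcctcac

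Pirinixic acid, the PPARα agonist that the labels give under its Wyeth number, was used as a reference at 15 µM in 1 library and gave the highest Cpt1a, Decr1, Acsl1 and Pdk4 values of all libraries. Acsl1 was at 861 CPM, against 46.9 to 94.7 CPM in DMSO, and Pdk4 at 178 CPM, against 4.88 to 9.04 CPM in DMSO. Cpt1a was at 86.1 CPM, against 12.9 to 26.5 CPM in DMSO, and Decr1 at 233 CPM, against 68.5 to 89.7 CPM in DMSO. These 4 of 9 were called higher, against 0.534% of all probes called in either direction, with changes of 3.57 ± 0.28 for Acsl1, 4.57 ± 0.29 for Pdk4, 1.69 ± 0.26 for Cpt1a and 1.52 ± 0.18 for Decr1 (the lone library is assumed to vary like DMSO; the largest adjusted p is 0.0162). Eci1 was at 1879 CPM, against 218 to 637 CPM in DMSO, and did not pass (1.92 ± 0.35, adjusted p = 0.0509). All 9 genes were above every DMSO library, where 20.2% of all probes were, and without DMSO replicate 5 the count was 8. The call of Cpt1a was lost when DMSO replicate 2, 4 or 6 was left out (1.59 to 1.71, adjusted p 0.0508 to 0.0857). Among 14 peroxisomal genes Ehhadh rose by 6.88 ± 0.31. Among 9 other PPARα targets Acot1 rose by 9.57 ± 0.45 and Cyp4a1 by 4.54 ± 0.24. Acot1 had a mean of 4.77 CPM over 191 libraries, so its change in this 1 library starts from a low level.

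**Figure D5:**
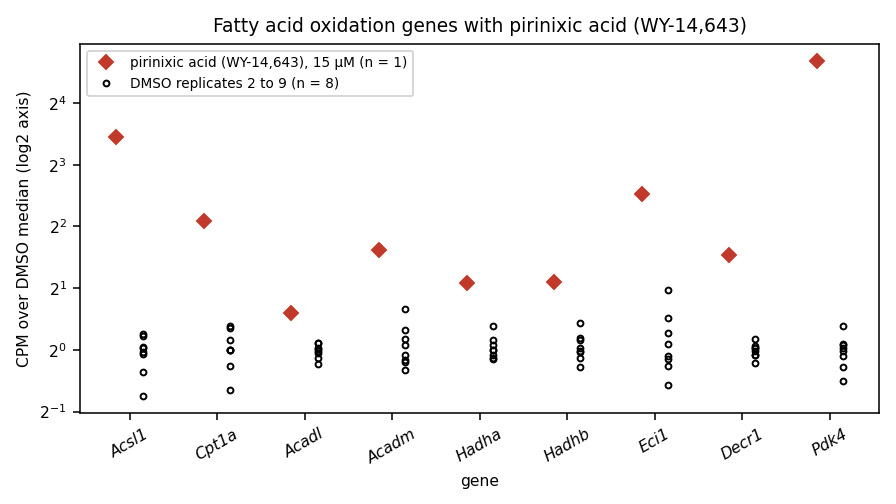
CPM divided by the DMSO median (log2 axis) of the 9 genes (x axis) in the pirinixic acid library (diamonds, n = 1) and in DMSO replicates 2 to 9 (circles, n = 8). The diamond lies above all circles for each of the 9 genes, highest for Pdk4 and Acsl1.

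Of the other 8 reference libraries, that of sulforaphane had calls among the 9 genes (6 lower, 1 higher), against 28.5% of all probes, in a fit of 1 library that is assumed to vary like DMSO. It was the shallowest library, with 582071 counts, and the median change over all probes was -1.07, against -1.31 for the 9 genes. Pdk4 was at 37.8 CPM in it, against 4.88 to 9.04 CPM in DMSO, and Decr1 at 8.59 CPM, against 68.5 to 89.7 CPM in DMSO. Cpt1a had 0 counts, where a limit of 3 counts is 5.15 CPM, at least 3.91-fold lower than the DMSO median of 20.2 CPM.

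The transcripts did not vary together equally. The correlation of log2 CPM over 191 libraries, which share plates and depth, had a median of 0.50 over the 36 pairs of genes and ran from -0.11 for Hadhb and Acsl1 to 0.91 for Acadm and Eci1. Hadha and Acadm had 0.88, and Acadl and Decr1 0.83, with 0.69 on plate 1 and 0.90 on plate 2. Acsl1 took part in the lowest values. Without the libraries of PFOA, S-Bioallethrin, pirinixic acid and sulforaphane the median was 0.37 over 177 libraries. Acadm and Hadhb followed the library score most (0.54 and 0.47) among the 9.

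For Cpt1a and Pdk4 the 5 tested probes most alike in log2 CPM outside the 9 genes were looked up. Those of Cpt1a were Aldh1a1 (0.83), Crot (0.80), Aldh3a2 (0.80), LOC103690020 (0.79) and Inpp5b (0.78), Crot being the peroxisomal carnitine octanoyltransferase. Those of Pdk4 were the acyl-CoA thioesterases Acot1 (0.74) and Acot2 (0.72), the glycerol kinase Gk (0.70), and Cyp4a2 (0.68) and Cyp4a1 (0.68). Acot1 and Acot2, and Cyp4a1 and Cyp4a2, are near relatives whose probes may share reads.

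Over the 29 chemicals the gene with the most calls was Eci1, with 3 higher and 4 lower. Its changes ran from -2.35 (imazalil) to 2.24 (PFOA). Pdk4 and Hadhb had 3 higher and 0 lower calls each, and Decr1 had 2 higher and 3 lower. Cpt1a had 1 higher and 3 lower. Hadha and Acadl had 2 and 2, Acadm 1 and 2, and Acsl1 1 and 1. The narrowest range was that of Acadl, -0.63 to 0.73, and the widest that of Pdk4, -1.12 to 3.53.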

How the data were processed

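The deposited table gives whole-number counts per probe and library, which by their values the authors had not normalised. The submitters' processing notes name Bowtie as aligner. A version, a genome build and the sequences of the probes are not given in the sources used here. Chemical, dose and plate of each library come from the labels. The genes and the lists of other genes were chosen with earlier results of these data known, as were the controls (DMSO replicates 2 to 9). CPM is the count over the library total.

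Probes reaching 1.741 CPM, which is 10 counts in a library of median depth, in 6 or more libraries were tested with edgeR 4.0.16 (R 4.3.3), TMM scaling and the quasi-likelihood F test, tested on simulated data. A fit for 1 chemical held its 6 libraries and the 8 DMSO libraries, with the dose score log2(1 + dose in µM) and plate. Differences between 2 chemicals are contrasts of slopes, and a reference library was set against DMSO with an indicator. Log2 CPM for correlations used a prior count of 2. No pair of the DMSO libraries held the same values (28 pairs compared). Counts come after amplification and are not independent molecules. Genes of other lists are named by the smallest adjusted p, up to 4 per list and chemical, and those most like Cpt1a and Pdk4 by correlation. Some genes counted in these lists are not reported here by name. Fits were repeated with DESeq2 1.42.0, with DESeq2's scaling inside edgeR, without the filter, without plate, with the rank of the dose as score, with the library score as a covariate or as a limit (0.5), with DMSO replicate 1 included, and with each DMSO library or dose left out. Promoter windows are from RefSeq (GRCr8).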

Additional observations from a re-analysis of the deposited data

Results flagged for a closer look

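DMSO replicate 1 was not used as a control, and in it 2 of the 9 genes lay above the 8 other DMSO libraries. Decr1 was at 138 CPM, against 68.5 to 89.7 CPM in replicates 2 to 9. Acsl1 was at 124 CPM, against 46.9 to 94.7 CPM in them. No other DMSO library stood far from the rest by Dixon's test in any of the 9 genes. That test takes 1 gene at a time and cannot show a library shifted in many genes. Replicate 5 was the highest of the 8 for Eci1, Acadm, Hadha, Hadhb and Pdk4. It was the lowest for Acsl1 and for Decr1 (68.5 CPM).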

How the results depend on the processing

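No paired analysis was possible because each treated group has 1 library, with no replicate number shared with DMSO. A comparison of several probes per gene could not be run, since each gene has 1. Of the 51 called values (35 in dose trends, 12 in differences and 4 with pirinixic acid), 0 changed direction under any alternative. With DMSO replicate 1 among the controls, 35 of the 51 lost the call. All probes called fell to 98 with PFOA, 43 with S-Bioallethrin, 313 with dithiopyr and 113 with cyproconazole, from 414, 324, 1437 and 988. The 29 trends then held 7 higher and 1 lower calls, and the genes called numbered 4 with PFOA, 1 with S-Bioallethrin, 2 with dithiopyr, 1 with cyproconazole, 1 with pirinixic acid and 1 in cyproconazole minus triticonazole. DESeq2 called 32 lower, and its calls over all probes rose to 868 with PFOA, 653 with S-Bioallethrin, 1925 with dithiopyr and 1717 with cyproconazole. Calls lost numbered 9 of 47 with the dose score by rank, 4 of 51 without the filter, 3 without the plate term, 1 with DESeq2's scaling and 0 with DESeq2. The library score as a covariate gave 40 lower calls, 8 with S-Bioallethrin, 8 with pirinixic acid, 1 in S-Bioallethrin minus PFOA and 2 in cyproconazole minus triticonazole. All probes called with S-Bioallethrin numbered 1174 with that covariate. The limit of 0.5 on the score removes DMSO replicate 5 as well, and for S-Bioallethrin and pirinixic acid it removes that library alone. With S-Bioallethrin 1036 of all probes were called under that limit. Under it there were 26 lower calls, 8 with S-Bioallethrin, 8 with pirinixic acid and 0 in cyproconazole minus triticonazole. Without the highest dose there were 3 lower calls, 2 genes with dithiopyr and 2 with cyproconazole. For these 2 chemicals all probes called then numbered 63 and 79. Leaving out 1 DMSO library or 1 lower dose at a time gave 11 to 27 lower calls, 3 to 8 genes with S-Bioallethrin, 3 to 8 with pirinixic acid and 2 to 5 in cyproconazole minus triticonazole. All probes called with S-Bioallethrin then ranged from 123 to 1036. The causes were not tested. Cpt1a rests on few counts at low levels, down to 1.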

Other observations

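Acsl1 held low values outside any order of dose. In 12 treated libraries it was under 10 CPM, against 46.9 to 94.7 CPM in DMSO. With Bisphenol A it was at 81.1, 6.93, 62.1, 2.38, 2.16 and 23.0 CPM from 0.14 to 33.3 µM, under 10 CPM at 0.4, 3.7 and 11.1 µM. In the same libraries Acadm was at 266 to 341 CPM, against 246 to 486 CPM in DMSO, and Eci1 at 317 to 375 CPM, against 218 to 637 CPM in DMSO. The fitted change of Acsl1 with Bisphenol A was the lowest of the 29, at -2.50, and was not called. The other libraries under 10 CPM include cyclanilide at 1.2 µM (3.18 CPM) and at 33.3 µM (4.36 CPM), and they stand on plates 1 and 2.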
